A study of Mus musculus with 6 samples.

Results

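The genes examined were 53 cell cycle and DNA replication genes, chosen by symbol from the 24346 gene symbols in the deposited tables. They comprise genes for origin licensing and the replication fork, nucleotide supply, cyclins and their kinases, the spindle checkpoint, chromosome structure, the spindle, general proliferation and CDK inhibitors, and were sorted here into 10 role groups. All 53 genes were present in the tables of all 6 mice, and all 53 reached 1 FPKM (fragments per length of transcript and number of mapped reads) in 1 mouse or more, the limit for testing that 11301 genes passed.

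A dividing cell licenses its replication origins with the MCM helicase, switches on genes for DNA synthesis through E2F factors once D and E cyclins have activated their kinases, and enters mitosis when cyclin A and cyclin B activate CDK1. Many of these genes are transcribed mainly in the phase that uses them, so their RNA level in a mixture of cells follows how many cells are dividing as well as the output of each cell. In the bone marrow, monocyte progenitors divide and lose this program as they mature into monocytes and, on bone, into osteoclasts that no longer divide. JAK kinases relay cytokine signals to STAT factors, and D cyclins are known targets of growth factor and cytokine signals in blood cells.

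RNA-Seq was performed on EGFP+ cells sorted from the calvarial bone marrow of CX3CR1-EGFP knock-in mice, in which the reporter marks monocytes and their relatives, named osteoclast precursors in the study. All mice had LPS (lipopolysaccharide, a bacterial cell wall product, 20 mg/kg) injected into the periosteum of the calvaria, so that no group without LPS was compared. From that day, 3 mice received the JAK inhibitor ABT-317 (60 mg/kg by mouth, 2 doses per day) and 3 received vehicle, and cells were taken after 5 days. The sorted fraction holds every EGFP+ cell of the marrow, not a single stage, and the age and sex of the mice are not given in the labels.

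The FPKM summed to between 688372 and 775790 per mouse, and read depth is unknown, so no counting interval can be given. Monocyte markers were present throughout, with all 8 listed genes tested and *Csf1r*, the M-CSF receptor, at an FPKM of 386 ± 33.7 (SD, n = 3) in JAK inhibitor-treated and 396 ± 33.2 (SD, n = 3) in vehicle-treated mice. *Calcr*, the calcitonin receptor of mature osteoclasts, was at 0 in all 6 mice, as were the B cell genes *Ebf1*, *Pax5* and *Ms4a1*. Other genes of the same marker lists were present in all 6 mice. The B lineage marker *Cd79b* was at 26.7 to 35.4, and the osteoclast markers *Acp5* and *Ctsk* were at 90.7 to 383 and 7.55 to 168. The zeros thus do not show that RNA of these cell types was absent. Vehicle-treated mouse 3 stood apart from the other vehicle-treated mice: its summed FPKM was the highest of the 6 mice for 8 mature neutrophil markers (21005) and 8 osteoclast markers (644), and the lowest for 9 neutrophil precursor markers (5948). Abundant genes set these sums, with *S100a8* at 15469 and *S100a9* at 4198 in this mouse, and *Mmp9* is in both of the first lists. Not every marker followed its sum: the mature neutrophil marker *Csf3r* was lowest in this mouse (44.1) and the precursor marker *Ms4a3* highest (726). For the cell cycle genes, counts and medians are given with and without this mouse.

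Promoters of genes for DNA synthesis and for mitosis are known to carry different short motifs. RefSeq promoter windows on GRCm38.p6, which run from 250 bases before to 50 bases after a transcription start, were found for 42 of the 53 genes, as 46 windows. An E2F motif (TTTGGCGC or TTTCGCGC, either strand) was in 33.3% of the 15 windows of replication and nucleotide genes, in 4.55% of the 22 windows of mitotic genes and in 0.813% of all 32851 windows. The CHR element (TTTGAA or TTCGAA, either strand), bound by the complex that times mitotic genes, was in 81.8% of mitotic, 20% of replication and nucleotide and 19.2% of all windows. A CCAAT box (CCAAT, either strand) was in 90.9%, 66.7% and 37.4% of these windows, respectively. The STAT motif TTCNNNGAA was in the windows of 2 of these 42 genes, *Mcm5* and *Cdc45*, or 4.35% of the windows against 8.3% of all windows. Neither *Ccnd1* nor *Ccnd2* had a window, so their promoters were not searched for any motif. A match is a description of the letters and not a shown binding site.

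The windows of 3 genes are printed to show these layouts, with motif matches in capitals and all read 5′ to 3′ on the gene's strand. That of *Mcm6*, a subunit of the replicative helicase, lies at chr1:128359656-128359955 on the minus strand and holds 3 E2F matches, of which 2 overlap and 1 reads on the opposite strand, and 2 CCAAT boxes, written ATTGG because they lie on the opposite strand.
Mcm6: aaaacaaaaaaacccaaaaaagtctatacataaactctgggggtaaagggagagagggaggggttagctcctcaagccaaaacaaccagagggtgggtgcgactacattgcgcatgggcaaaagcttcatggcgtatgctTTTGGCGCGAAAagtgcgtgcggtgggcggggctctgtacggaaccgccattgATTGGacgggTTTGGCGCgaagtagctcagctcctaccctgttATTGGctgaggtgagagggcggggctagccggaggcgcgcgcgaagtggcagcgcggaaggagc
The windows of the B cyclins *Ccnb1* (chr13:100786437-100786736, minus strand) and *Ccnb2* (chr9:70421505-70421804, minus strand) are shown because these 2 partners of CDK1 differ in their matches to the letters searched. The *Ccnb2* window holds 2 CHR matches and 3 CCAAT boxes, whereas the *Ccnb1* window holds 2 CCAAT boxes and no match to these CHR letters. Close spellings, such as the tttaaa in the printed *Ccnb1* window, were not searched. The difference therefore does not show that *Ccnb1* lacks such an element.
Ccnb1: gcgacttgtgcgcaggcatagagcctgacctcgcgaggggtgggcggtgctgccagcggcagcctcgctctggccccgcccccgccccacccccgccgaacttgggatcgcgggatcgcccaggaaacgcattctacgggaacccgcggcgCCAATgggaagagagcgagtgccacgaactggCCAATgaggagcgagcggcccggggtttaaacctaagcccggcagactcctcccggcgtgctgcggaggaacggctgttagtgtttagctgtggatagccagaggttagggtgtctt
Ccnb2: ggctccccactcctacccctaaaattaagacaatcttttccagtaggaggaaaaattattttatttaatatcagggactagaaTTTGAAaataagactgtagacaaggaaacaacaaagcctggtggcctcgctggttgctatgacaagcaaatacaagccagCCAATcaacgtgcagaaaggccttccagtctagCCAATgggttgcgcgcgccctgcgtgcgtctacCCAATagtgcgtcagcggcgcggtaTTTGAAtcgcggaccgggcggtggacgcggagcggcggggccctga

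Most of the 53 chosen genes were expressed at a high level in these cells. FPKM are scaled by length and can be set side by side between genes. Genes were ranked by mean log2(FPKM + 1) over the 6 mice. Of the 53 genes, 37 were in the top 25% of the tested genes, 19 in the top 10% and 6 below the median. The median of their mean FPKM was 62.9, against 11.6 over all tested genes. Levels were lower in the 3 wider lists of the pathway described below. Of their 149 tested genes, 52 were in the top 25%, 14 in the top 10% and 32 below the median, with a median of 23.4. *Stmn1*, which destabilizes microtubules and is abundant in dividing cells, was the highest of the 53 genes at a mean FPKM of 1045. The chromatin protein *Hmgb2* followed at 793. The 7 genes grouped as mitotic cyclins and kinases were between 72.6 (*Cdk1*) and 194 (*Ccnb2*). The checkpoint kinase *Bub1*, sorted into another group, was at 9.87. The helicase loader *Cdc6* was the lowest of the replication genes among the 53, at 16.7. Among the D cyclins, *Ccnd3* was at 262, *Ccnd2* at 12.2 and *Ccnd1* at 1.74, the lowest of all 53 genes. Of the CDK inhibitors, *Cdkn1a* (p21) was at 16.7, above the median of the tested genes, and *Cdkn1b* (p27) at 3.37, below it.

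**Figure D1:**
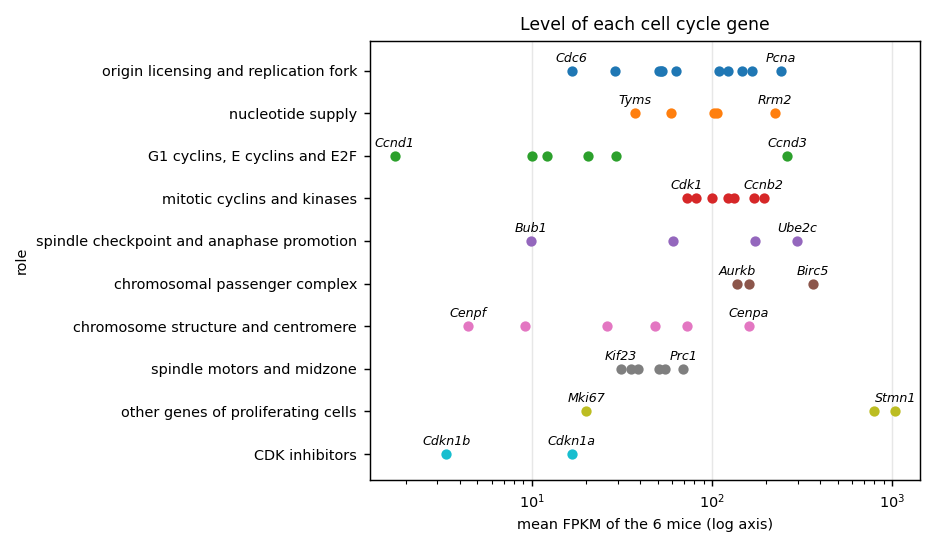
Mean FPKM of the 6 mice (log axis) for each of the 53 genes, 1 point per gene, by role, with the lowest and the highest gene of each role named. Most genes lie between 10 and 300, with *Stmn1* at 1045 and *Ccnd1* at 1.74 as the ends.

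The comparison of JAK inhibitor-treated with vehicle-treated mice asked whether the drug went with another level of these genes. Differences were small: the 53 log2 fold changes on the log2(FPKM + 1) scale had a median of 0.02 (all tested genes, -0.0035), and ran from -0.58 for *Ccnd2* to 0.27 for *Cdc6*, with 20 below and 33 above 0. By limma, 2 genes were lower at an unadjusted p under 0.05, *Ccnd2* and *Ccnb1*, where 9.4% of all tested genes were lower, and 0 were higher, where 6.57% of all tested genes were. At an adjusted p under 0.05 none of the 53 genes was called, against 0.133% of all tested genes (15 genes). In such sorted bulk samples, fewer dividing cells and less RNA per cell cannot be told apart.

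The groups did not overlap, all 3 treated mice below all 3 controls, for 5 genes (*Ccnd2*, *Ccnb1*, *Aurka*, *Cdc20* and *Cdkn1a*), where 12.1% of all tested genes did so. The opposite held for 1 gene, *Stmn1*, where 9.92% of all tested genes did so. With 3 mice per group the exact 2-sided permutation test cannot go below 0.1, which is the value for each of these 6 genes. The 95% intervals bound the fold changes of FPKM + 1. Those of 47 of the 53 genes lay within a 1.5-fold change in either direction, all except *Cdc6*, *Ccnd2*, *Ccne1*, *Plk1*, *Stmn1* and *Cdkn1a*. Those of all 53 lay within 2-fold. For low genes, such as *Ccnd1* at a mean FPKM of 1.74, the bounds on FPKM itself are wider.

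**Figure D2:**
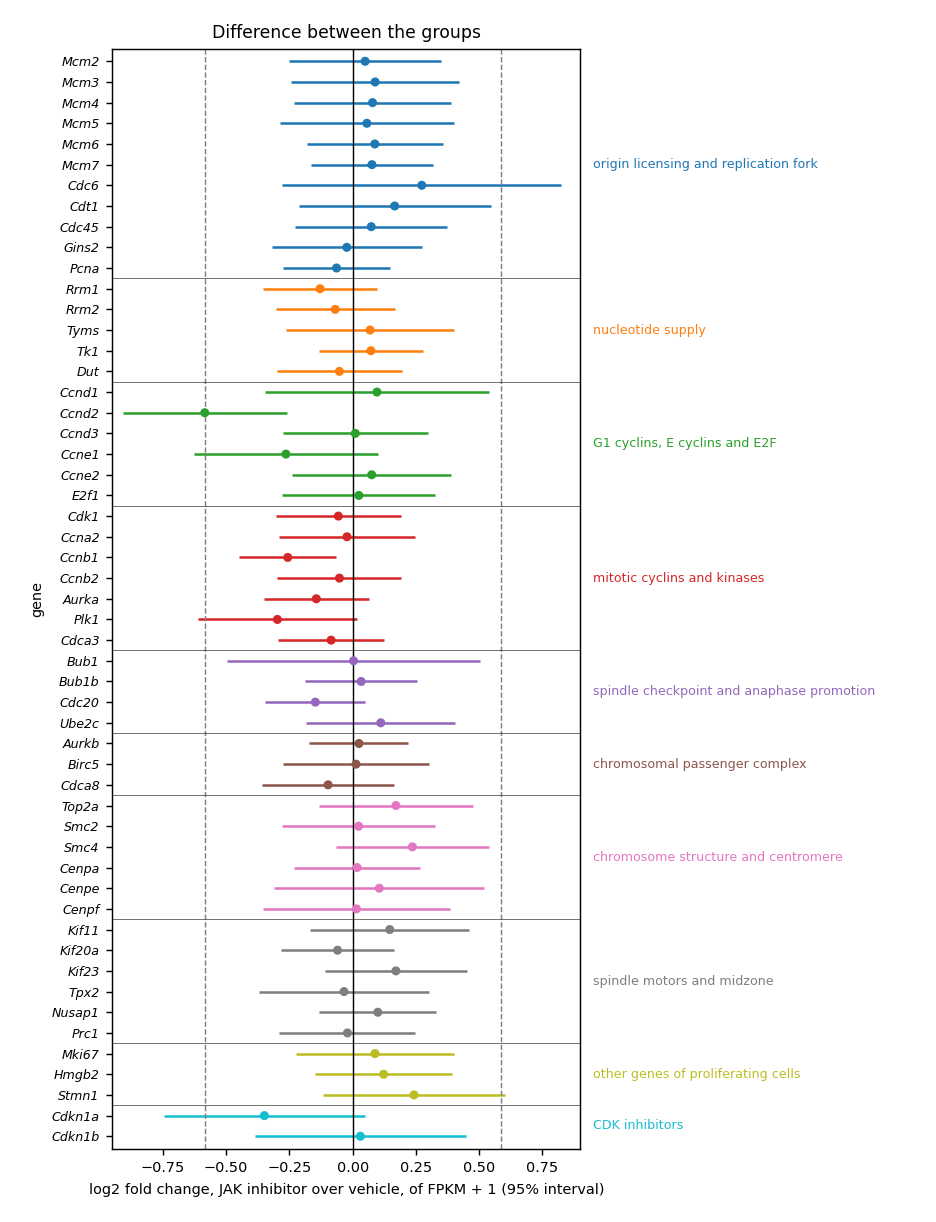
Log2 fold change of FPKM + 1, JAK inhibitor over vehicle, with its 95% interval from limma for each of the 53 genes (n = 3 mice per group), colored by role, with dashed lines at a 1.5-fold change. The intervals of *Ccnd2* and *Ccnb1* lie wholly below 0, and the other 51 cross it.

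Values also differed within the vehicle group. Vehicle-treated mouse 3 had the lowest FPKM of the 6 mice for 36 of the 53 genes (67.9%, against 24.7% of all tested genes) and the highest for 1, *Cdkn1a*. The other vehicle-treated mice held most of the highest values, mouse 2 for 23 genes and mouse 1 for 14. Summed over the 53 genes, the FPKM of treated mice 1 to 3 was 6523, 6567 and 6586, and that of vehicle-treated mice 1 to 3 was 6856, 6966 and 5396, so that the 3 treated mice lay close together between the high and the low control.

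Relative to the mean of the other vehicle-treated mice, vehicle-treated mouse 3 was lower by a median log2 difference of -0.32 over the 53 genes (all tested genes, 0.00). It was lowest of the 6 mice for 10 of the 11 origin licensing and replication fork genes, 5 of the 6 spindle motor and midzone genes, 5 of the 6 chromosome structure genes, and for all 3 genes each of the chromosomal passenger and general proliferation groups. For the mitotic cyclins and kinases this was 2 of 7. *Cdc6* differed most, at -0.91, and *Cdkn1a*, a CDK inhibitor, went the other way at 0.52. In the same mouse the mature neutrophil and osteoclast markers were at their highest sums and the neutrophil precursor markers at their lowest, and their part in the low cell cycle values was not tested.

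**Figure D3:**
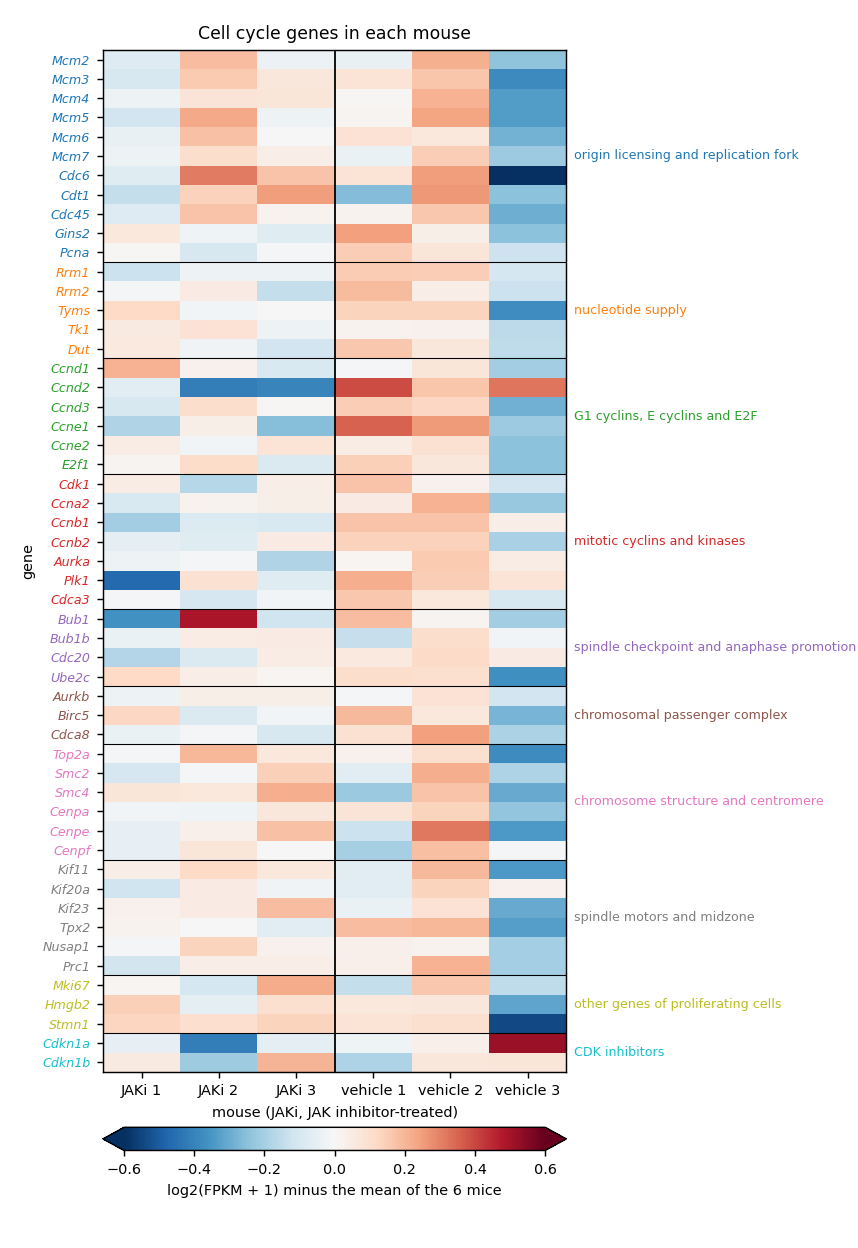
Log2(FPKM + 1) of each gene in each mouse minus its mean over the 6 mice (color scale, red above and blue below), with JAK inhibitor-treated (JAKi) mice left of the line and genes by role. The column of vehicle-treated mouse 3 is blue for most replication and chromosome genes and red for *Cdkn1a*, while *Ccnd2* separates the groups.

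Cyclin D2 had the smallest p and the largest fold change of the 53 genes. *Ccnd2*, which activates CDK4 and CDK6 in G1 and lies at chr6:127125162-127152193 on the minus strand (GENCODE M21, GRCm38), had an FPKM of 11.3, 8.70 and 8.81 in treated mice 1 to 3, against 15.9, 13.5 and 15.1 in vehicle-treated mice 1 to 3. Every treated mouse was below every control, and vehicle-treated mouse 3 was between the other controls. The log2 fold change was -0.58 (SE 0.14, 95% interval -0.91 to -0.26, 0.67-fold), with a limma p of 0.00276 and an adjusted p of 0.121. Over the 14 alternative fits it stayed between -0.70 and -0.52, with unadjusted p from 0.00141 to 0.0133. The annotation places the antisense genes *Gm43126* and *9330179D12Rik* on the opposite strand of *Ccnd2*, and whether reads were counted by strand is not given in the sources used here.

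The other D cyclins gave values without a difference past the test. *Ccnd3*, the most abundant D cyclin here, was at 244, 280.4 and 262 in JAK inhibitor-treated and 289, 284 and 213 in vehicle-treated mice 1 to 3 (log2 fold change 0.01, SE 0.13, 95% interval -0.28 to 0.30). *Ccnd1* ranged from 1.36 to 2.15 over the 6 mice (0.10, SE 0.20). The ratio of *Ccnd2* to *Ccnd3*, looked at after the values were seen, was 0.0465, 0.0310 and 0.0337 in treated mice 1 to 3 and 0.0551, 0.0475 and 0.0710 in control mice 1 to 3, without overlap.

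The E cyclins bind CDK2 at the start of DNA synthesis. *Ccne1* was at 25.5, 29.7 and 24.1 in JAK inhibitor-treated and at 37.3, 34.8 and 24.8 in vehicle-treated mice 1 to 3, so that only vehicle-treated mouse 3 overlapped with the treated mice. Its log2 fold change was -0.26 (SE 0.16, limma p 0.137) with all mice and -0.44 (SE 0.12, limma p 0.00542, adjusted p 0.157) without that mouse. Leaving out the lowest control value makes the fold change more negative by itself. *Ccne2* was between 8.28 and 10.7 in all 6 mice. *E2f1*, the factor that these kinases release, was at 20.8 ± 1.48 (SD, n = 3) in treated and 20.5 ± 2.97 (SD, n = 3) in control mice, a log2 fold change of 0.02 (SE 0.13).

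Cyclin B1 was the other gene past an unadjusted p of 0.05. *Ccnb1* (chr13:100778650-100786570, minus strand) was at 147, 161 and 159 in JAK inhibitor-treated and 191, 192 and 175 in vehicle-treated mice 1 to 3. The groups were apart by the gap between 161 and 175, and the log2 fold change was -0.26 (SE 0.08, 95% interval -0.45 to -0.06, 0.84-fold, limma p 0.0147, adjusted p 0.201). It did not pass with quantile normalization (-0.18, p 0.0652) or without JAK inhibitor-treated mouse 1 (-0.22) or vehicle-treated mouse 1 (-0.24). A pseudogene of this name, *Ccnb1-ps*, is annotated, as one is for *Ccnb2*, so that their reads may be shared.

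*Ccnb2*, the other B cyclin with a window printed above, was at 186, 184 and 199.8 in treated and 213, 213 and 169 in control mice 1 to 3. Its log2 fold change was -0.05 (SE 0.11), and vehicle-treated mouse 3 was the lowest of all mice. The ratio of *Ccnb1* to *Ccnb2*, again looked at after the values were seen, was 0.788, 0.874 and 0.797 in treated mice and 0.900, 0.901 and 1.04 in control mice, without overlap. A further such ratio, *Ccne1* to *Ccne2*, overlapped, at 2.45, 3.001 and 2.26 in treated and 3.61, 3.24 and 2.995 in control mice. *Ccnd2* and *Ccnb1* did not overlap by themselves, so the ratios with these genes on top add no separate support.

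The group of mitotic cyclins and kinases holds 7 genes, with *Cdca3*, which is neither, among them. All 7 had a log2 fold change below 0 with all 6 mice, with a median of -0.09. This also held without vehicle-treated mouse 3, with a median of -0.16. The kinase genes *Aurkb*, *Bub1* and *Bub1b*, sorted into other groups, stood at 0.025, 0.0035 and 0.034 with all 6 mice. The shared direction thus holds for this grouping and not for every mitotic kinase gene. In other fits *Cdk1*, *Ccna2* and *Ccnb2* came out above 0, at most at 0.08 (*Ccna2* without vehicle-treated mouse 2). *Plk1*, a kinase of mitotic entry, was at 58.4, 86.3 and 77.0 in JAK inhibitor-treated and 94.4, 89.8 and 85.7 in vehicle-treated mice 1 to 3 (-0.30, SE 0.14, limma p 0.0609). Treated mouse 2 was above the lowest control, and the other treated mice were below all controls. *Aurka*, a centrosome kinase, was at 97.9, 99.6 and 88.0 in treated and 101, 112 and 103 in control mice (-0.14, SE 0.09, limma p 0.151), apart by a gap of about 1 FPKM. *Cdk1* itself was at 71.2 ± 5.98 (SD, n = 3) and 74.1 ± 7.49 (SD, n = 3), a log2 fold change of -0.06 (SE 0.11).

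**Figure D4:**
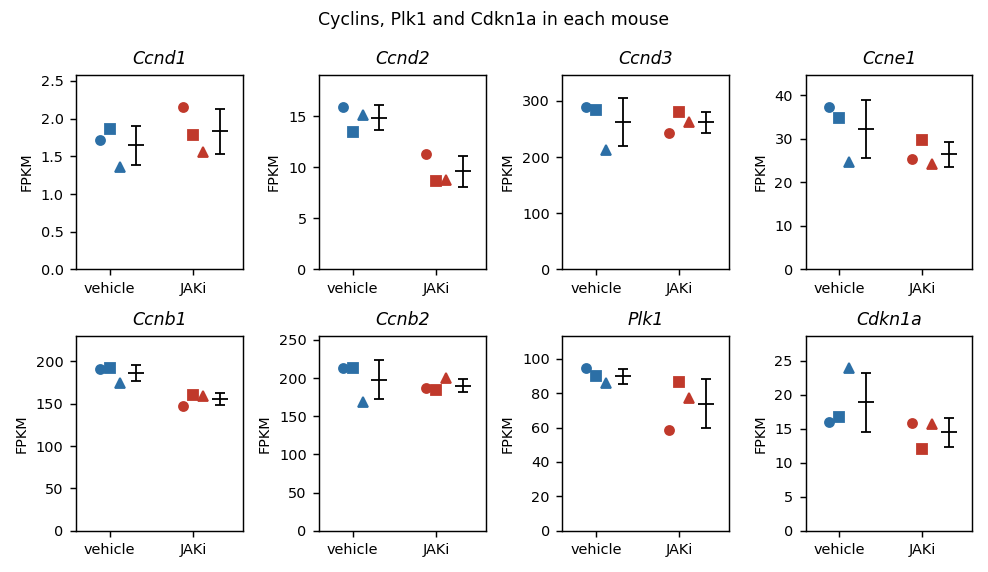
FPKM of 8 genes in each mouse (circle, square and triangle for mice 1, 2 and 3), vehicle in blue and JAK inhibitor (JAKi) in red, with the mean and SD (n = 3) in black and every axis starting at 0. *Ccnd2* and *Ccnb1* separate the groups, whereas *Ccnd3*, *Ccne1* and *Ccnb2* overlap through the low value of vehicle-treated mouse 3, and *Cdkn1a* is highest in that mouse.

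Of the 4 genes that hold or trigger anaphase, *Cdc20*, which activates the ligase that ends mitosis, was at 153, 163 and 178.5 in treated and 180.2, 187 and 179.2 in control mice, a log2 fold change of -0.15 (SE 0.09). The highest treated and the lowest control value differed by under 1 FPKM. *Bub1*, a checkpoint kinase, was the least repeatable, from 7.28 to 14.0 among the treated mice alone. In the chromosomal passenger complex, which corrects spindle attachments, *Aurkb* was at 139.7 ± 3.51 (SD, n = 3) in treated and 138 ± 9.59 (SD, n = 3) in control mice, and *Cdca8* had a log2 fold change of -0.10 (SE 0.12).

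For the 16 replication and nucleotide genes the median log2 fold change was 0.07, with 11 above 0 and 0 past the test in either direction. Without vehicle-treated mouse 3 the median was -0.07, with 2 above 0. *Mcm6*, whose E2F matches are printed above, was at 161, 187 and 166 in treated and 176, 174 and 136 in control mice 1 to 3 (0.09, SE 0.12). *Cdc6* had the highest fold change of all 53 genes (0.27, SE 0.24, limma p 0.290) from values of 15.4, 20.4 and 18.4 in treated and 17.3, 19.5 and 9.28 in control mice. It stood at -0.03 without vehicle-treated mouse 3, which shows that the single value of 9.28 set its sign. *Pcna*, the sliding clamp, was at 236 ± 9.17 (SD, n = 3) and 248 ± 23.6 (SD, n = 3). *Rrm1* and *Rrm2*, the subunits of ribonucleotide reductase, had log2 fold changes of -0.13 (SE 0.10) and -0.07 (SE 0.10).

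Among the genes of chromosome structure and the spindle, 9 of 12 had a log2 fold change above 0, and none passed the test. Without vehicle-treated mouse 3, 6 of 12 were above 0, and the medians were -0.01 for chromosome structure and -0.03 for the spindle, instead of 0.06 and 0.04. The condensin subunit *Smc4* was at 50.5, 50.1 and 55.9 in treated and 41.0, 54.0 and 38.7 in control mice 1 to 3 (0.24, SE 0.13, limma p 0.112, and 0.14 without vehicle-treated mouse 3). Topoisomerase *Top2a* (0.17, SE 0.13) and the midzone motor *Kif23* (0.17, SE 0.12) each had the lowest value in vehicle-treated mouse 3, and stood at 0.02 and 0.06 without it. *Mki67*, the usual proliferation marker, was at 20.2, 18.6 and 23.6 in treated and 18.1, 22.6 and 17.9 in control mice, a log2 fold change of 0.09 (SE 0.14) with overlapping groups. *Stmn1* was at 1127, 1108 and 1133 in treated and 1093, 1103 and 708 in control mice, and its log2 fold change of 0.24 (SE 0.16) was 0.03 (SE 0.08) without vehicle-treated mouse 3.

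The CDK inhibitor *Cdkn1a* was at 15.8, 12.04 and 15.7 in JAK inhibitor-treated and 16.1, 16.8 and 23.9 in vehicle-treated mice 1 to 3. The groups did not overlap, but treated mouse 1 and control mouse 1 were within 1 FPKM, and the difference did not pass the test (-0.35, SE 0.18, limma p 0.0787, and -0.18 without vehicle-treated mouse 3). *Cdkn1b* was between 2.75 and 4.01 in all mice (0.03, SE 0.18).

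Without vehicle-treated mouse 3, more genes had lower values in treated mice. This mouse was the lowest of the 6 for 36 of the 53 genes, so leaving it out raises the control mean of these genes. The shift is thus built into the choice of mouse, and smaller p values in this fit are no separate support. The median log2 fold change was -0.08 instead of 0.02, and 40 of the 53 genes were below 0. In this fit 5 genes were lower at an unadjusted p under 0.05 (*Ccnd2*, *Ccnb1*, *Ccne1*, *Rrm1* and *Cdca8*), where 8.12% of all tested genes were, and 0 were higher, where 5.39% of all tested genes were. None passed an adjusted p of 0.05, and the adjusted p of *Ccnd2* was 0.160. *Rrm1* was at -0.21 (SE 0.09) and *Cdca8* at -0.22 (SE 0.09). The median was -0.10 for the 26 mitotic genes. The 95% intervals of 49 of the 53 genes lay within a 1.5-fold change of FPKM + 1 in either direction.

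**Figure D5:**
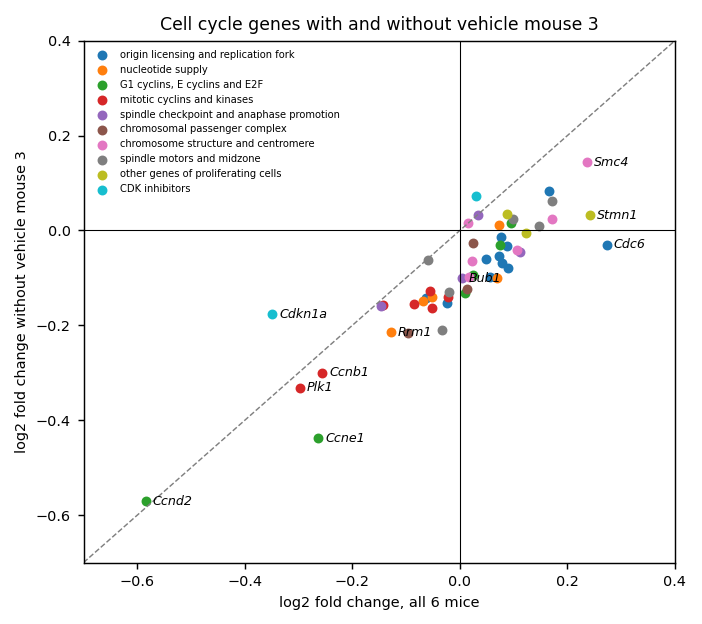
Log2 fold change (JAK inhibitor over vehicle, log2(FPKM + 1) scale) of each gene with all 6 mice (horizontal) and without vehicle-treated mouse 3 (vertical), 1 point per gene, colored by role, with a dashed line where both are equal. Most points lie below the line, *Ccnd2* (-0.58 and -0.57) lies close to it, and *Cdc6* moves from 0.27 to -0.03.

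Other genes of the pathway were taken from 3 lists. At an unadjusted p under 0.05, 9.4% of all tested genes were lower and 6.57% higher with all mice. Without vehicle-treated mouse 3 these shares were 8.12% and 5.39%. Of 46 further replication genes, 1 was lower at an unadjusted p under 0.05 and 0 were higher (median 0.07), against 3 lower, 0 higher and a median of -0.03 without vehicle-treated mouse 3. With all mice, the lower one was the primase subunit *Prim2* (-0.48, SE 0.12, adjusted p 0.123), at 19.03 to 24.95 in treated and 29.84 to 31.997 in control mice. Of 34 tested genes of CDK, RB and E2F control, 1 was lower and 1 was higher (median 0.12), against 0 lower, 1 higher and a median of 0.05 without that mouse. With all mice these were *Mybl2*, a factor of the complex that binds CHR elements (-0.31, SE 0.12, adjusted p 0.258), and *E2f3* (0.52, SE 0.19, adjusted p 0.227), the latter at 2.12 to 2.78 in treated and 1.32 to 1.34 in control mice.

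The kinases that D cyclins bind did not pass the test, with *Cdk4* at 279.9 ± 0.943 (SD, n = 3) in treated and 275 ± 39.6 (SD, n = 3) in control mice, and *Cdk6* at 22.3 ± 0.639 and 20.6 ± 0.553 (SD, n = 3 each). Of the INK4 inhibitors of these kinases, *Cdkn2d* was the most abundant at 176 ± 17.8 and 179.9 ± 29.7 (SD, n = 3 each), while *Cdkn2a* and *Cdkn2b* did not exceed 0.236 in any mouse. Of 69 further mitosis genes, 1 was lower, the centromere gene *Cenpm* (-0.35, SE 0.10, adjusted p 0.154), and 3 were higher (median 0.07), against 5 lower, 1 higher and a median of -0.00034 without vehicle-treated mouse 3. With all mice the higher ones were *Psrc1*, a spindle protein gene (0.69, SE 0.19, adjusted p 0.154), the centromere gene *Cenpn* (0.39, SE 0.14, adjusted p 0.235) and the kinetochore gene *Nuf2* (0.34, SE 0.15, adjusted p 0.311), all adjusted over the tested genes in limma. Together, 3 of 149 genes of the 3 lists were lower (2.01%) and 4 higher (2.68%) with all mice (median 0.08). Without vehicle-treated mouse 3, 8 were lower (5.37%) and 2 higher (1.34%, median 0.0038). All of these are under the shares of all tested genes, so the single genes named do not stand out by number. The counts also moved when other mice were left out. Of 15 tested p53 targets, a class to which *Cdkn1a* belongs, *Phlda3* was higher (1.89, SE 0.40, adjusted p 0.109), at 6.64 to 9.03 in treated and 0.256 to 3.58 in control mice, and *Fas* was lower (-0.39, SE 0.10, adjusted p 0.122).

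Markers of cells at different stages moved between the groups and stand beside every count above. Over all tested genes, 9.4% were lower and 6.57% higher at the same limit. Of 9 neutrophil precursor markers, 5 were higher and 1 lower at an unadjusted p under 0.05, with a summed FPKM of 13857 to 14543 in JAK inhibitor-treated and 5948 to 10531 in vehicle-treated mice. Of 8 macrophage markers 4 were lower (summed FPKM 139 to 232 against 254 to 431), of 8 mature neutrophil markers 4 were lower (6545 to 13363 against 10024 to 21005), and of 7 tested mature osteoclast markers 6 were lower (117 to 124 against 175 to 644). Of 7 tested erythroid markers 4 were higher (67.5 to 136 against 3.39 to 41.0). Of 8 monocyte markers 2 were lower, with sums of 29065 to 38476 against 28555 to 37815. Of 6 tested stem and progenitor markers 1 was lower and 1 higher, of 5 T and NK cell markers 1 was lower and 1 higher, of 6 dendritic cell markers 2 were higher, and of 3 B lineage markers none passed in either direction. Neutrophil precursors divide, whereas mature neutrophils and osteoclasts do not. The part of these differences in the cell cycle values was not tested.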

How the data were processed

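The authors deposited 1 table of FPKM per mouse. The submitters' processing notes name TopHat2 2.0.13, Bowtie2 2.2.3, SAMtools 0.1.19 and Cufflinks 2.2.1 and the build mm10, without settings. The methods name a stranded library kit and the labels a SMART-Seq HT and Nextera preparation. Groups and mouse numbers are those of the sample titles. FPKM were kept as scaled and log2(FPKM + 1) was compared between 3 and 3 mice with limma 3.58.1 in R 4.3.3 (moderated variance with a trend on the mean level, p adjusted by Benjamini-Hochberg over all tested genes). Genes under 1 FPKM in every mouse were left out, which kept 11301 genes. Fold changes on this scale understate changes of low genes. A gene is called lower or higher at an unadjusted p under 0.05, since few genes passed the adjustment. On simulated data with 200 genes changed by 1.5 on the log2 scale, 94.5% were recovered at an adjusted p under 0.05 and 5.97% of the genes passing it were false. This does not apply to calls at an unadjusted p. The log2 fold changes of the cell cycle genes were much smaller than 1.5, from -0.58 to 0.27. The simulation held no changes of that size, so it cannot tell how often they would be recovered.

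The members and lists were chosen with earlier results of these data known. All members could be named, and of the wider lists up to 5 genes per direction with the smallest p. Alternatives were a pseudocount of 0.1, no filter, a filter of 3 mice, quantile and median ratio scaling, no trend, library weights, a replicate block and each mouse left out. Gene positions are from GENCODE M21, and promoter windows from RefSeq. Python 3.11.15 was used with matplotlib 3.10.9 for figures, SciPy 1.17.1 for exact tests, and pandas 2.3.3 and NumPy 2.4.6.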

Additional observations from a re-analysis of the deposited data

How the results depend on the processing

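*Ccnd2* was lower at an unadjusted p under 0.05 in all 14 alternatives, and 0 of the 53 genes passed an adjusted p of 0.05 in any of them. Of the 53 genes, 20 kept their sign throughout, 33 changed it when some single mouse was left out and 11 under another alternative. FPKM carry no depth, so small differences in low genes cannot be weighed by counts. The 2 genes called lower became 1 with quantile normalization and 4 with library weights (*Ccne1* and *Plk1* added), and 1 to 5 with a mouse left out (1 without JAK inhibitor-treated mouse 1, 5 without vehicle-treated mouse 3). Genes called higher numbered 0 to 2 with a mouse left out (*Cdt1* and *Smc4* without vehicle-treated mouse 2), and genes below 0 numbered 15 to 40. The cause was not tested.

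Over all genes, 15 passed an adjusted p of 0.05, against 2 with no filter, 34 with the filter of 3 mice, 2 with no trend, 63 with library weights, 67 with the replicate block and 3 to 95 with a mouse left out. In the wider lists, leaving out a mouse gave 1 to 3 lower and 0 to 3 higher replication genes, 0 to 1 lower and 1 to 2 higher control genes, 1 to 5 lower and 1 to 10 higher mitosis genes, and 1 to 3 lower and 1 to 2 higher p53 targets, and median ratio scaling gave 5 higher mitosis genes.

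Signs changed for 4 of the 53 genes with quantile normalization and for 7 with library weights. Among the genes with a printed fold change these were *Ccnb2* (0.022) and *Ccna2* (0.0065) with quantile normalization and, with library weights, *Ccnd3* (-0.068) and *E2f1* (-0.058). With a mouse left out, of the same genes *Mcm6* ran from -0.032 to 0.15, *Cdc6* from -0.030 to 0.47, *Rrm2* from -0.15 to 0.0098, *Ccnd3* from -0.13 to 0.088, *E2f1* from -0.093 to 0.10, *Cdk1* from -0.13 to 0.016, *Ccna2* from -0.14 to 0.077, *Ccnb2* from -0.16 to 0.0036, *Cdca8* from -0.22 to 0.00088, *Mki67* from -0.0012 to 0.19 and *Cdkn1b* from -0.065 to 0.15.

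The same numbers label different mice in the 2 groups, and the sample titles do not say whether same-numbered mice were handled together. Deviations of same-numbered mice correlated at 0.016, 0.054 and -0.00016 across genes. With 3 mice per group these values cannot exclude shared handling by number. The mice were not paired in the main fit. With the replicate block, 3 of the 53 genes were lower (*Cdkn1a*, p 0.0482 in limma, added) and 0 higher.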
